A study of Homo sapiens with 40 samples.

Results

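Replication-dependent histone genes encode the bulk of the core histones H2A, H2B, H3 and H4 and of linker histone H1, and their mRNA level was followed in WT and PARP1-KO HEK293A cells under all 5 treatments of the series. The genes were chosen by name. Protein-coding genes of GENCODE 44 whose symbol starts with H2AC, H2BC, H3C or H4C and continues with a number were joined with H1-1 to H1-5, which gave 69 genes. Of these, 65 were rows of the count table of 58395 genes, and 46 of the 65 passed the filter of at least 10 counts summed over 40 libraries, which 28922 genes passed in all. The identifiers of H2AC18, H2AC19, H3C2 and H3C3 in that annotation were not matched and these 4 genes were not analysed here.

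HEK293A is an established line of human embryonic kidney cells with a flat, attached growth. PARP1-KO was 1 clone made from it by CRISPR/Cas9, with a deletion in PARP1, the gene of the DNA break sensor poly(ADP-ribose) polymerase 1. Cells of each genotype received no treatment, 0.1% DMSO, topotecan (Tpc, which traps topoisomerase 1 on DNA), 5 μM of the TDP1 inhibitor that the sample labels call OL9 (a usnic acid derivative dissolved in DMSO, where TDP1 is the repair enzyme that removes trapped topoisomerase 1 from DNA ends) or Tpc together with OL9. Exposure lasted 5 h to 5.5 h, and each of the 10 groups had 4 replicates. Tpc was given at 100 nM to WT cells and at 50 nM to PARP1-KO cells, so in any contrast of the Tpc responses genotype and dose cannot be told apart. Tpc was given with DMSO, so the solvent was present in every treated group. The labels call the replicates biological and the methods call them technical in 1 place, so p-values below measure the spread between these samples, which may be technical.

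In a cycling cell these genes are switched on at the entry into S phase and supply the histones that package newly copied DNA. Their mRNAs typically end in a short RNA hairpin in place of a poly(A) tail. The stem-loop binding protein SLBP holds the hairpin, the U7 snRNP directs the cut behind it, and NPAT drives transcription of the gene clusters. Several of the genes also have an alternative end further downstream that carries an ordinary poly(A) tail. The libraries were made from RNA selected for poly(A) tails, so the counts below describe the histone RNA that came through that selection and not the whole pool of histone mRNA. In these bulk samples, fewer cells in S phase and less RNA per cell cannot be told apart.

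A perfect hairpin of 6 paired bases and 4 loop bases was found behind the stop codon in 66 of the 69 genes, at 23 to 68 bases from the stop codon with a median of 36. H2AC11, H2AC15 and H2BC12L had none. The hairpins of the genes the results turn on are printed with 5 bases on each side, 5′ to 3′ on the gene's strand of hg38, with the stem in capitals.
H2BC12: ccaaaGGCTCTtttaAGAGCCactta
H1-2: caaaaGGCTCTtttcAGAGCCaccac
H2AC6: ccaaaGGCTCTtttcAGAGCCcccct
H2AC8: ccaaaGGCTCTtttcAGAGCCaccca
H2AC25: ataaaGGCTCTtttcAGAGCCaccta
H2BC15: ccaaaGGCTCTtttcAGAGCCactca
H2BC21: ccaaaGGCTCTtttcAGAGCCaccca
H3C10: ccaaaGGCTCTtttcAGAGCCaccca
H4C3: ccaaaGGCCCTtttcAGGGCCgctca
H4C8: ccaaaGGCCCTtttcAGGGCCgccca

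These 10 runs lie in the 3′ untranslated part of their genes, at chr6:27146361-27146386 (minus strand) for H2BC12, chr6:26055739-26055764 (minus) for H1-2, chr6:26124664-26124689 (plus) for H2AC6, chr6:26217412-26217437 (plus) for H2AC8, chr1:228457364-228457389 (minus) for H2AC25, chr6:27839085-27839110 (plus) for H2BC15, chr1:149886183-149886208 (minus) for H2BC21, chr6:27810511-27810536 (plus) for H3C10, chr6:26104312-26104337 (plus) for H4C3 and chr6:26285126-26285151 (minus) for H4C8. The classes differ in 1 pair of the stem. All 15 H4 genes carried GGCCCT and AGGGCC as arms, and the other 51 genes with a hairpin carried GGCTCT and AGAGCC. The loop was tttc in 50 of the 66 genes, 10 of them H4, and ttta in 8, none of them H4. H2BC21, H2AC8 and H3C10 have the same 26 bases but levels that lie apart, as given below.

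Beyond the hairpin, 17 of the 69 genes have an annotated transcript that runs on for more than 50 bases, with the furthest end 430 to 37155 bases downstream on the genome, introns included. For the other genes with a hairpin, annotation stops at most 18 bases behind it. Of the 17 genes, 14 have AATAAA, the signal for cleavage and addition of a poly(A) tail, within the last 50 bases of a transcript, against 2 of the others. The signals of 5 of the genes are printed with 5 bases on each side and the signal in capitals.
H2BC21: ttattAATAAAgttac
H2AC6: gaggtAATAAAaggta
H2BC15: aggcaAATAAAaatct
H2BC5: taattAATAAAatctg
H3C10: gactaAATAAAatctg

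They lie 1705 bases behind the hairpin in H2BC21, 14403 in H2AC6, 16584 in H2BC15, 12722 in H2BC5 and 746 in H3C10, at chr1:149884472-149884487, chr6:26139083-26139098, chr6:27855685-27855700, chr6:26171320-26171335 and chr6:27811273-27811288. These are distances on the genome. H2AC6, H2BC15 and H2BC5 have only 1668, 4265 and 861 exon bases in all, so introns make up most of their distances. The genes with a downstream end were measured at a higher level per length than those without. Their median over the 17 genes was 1.08 CPM per kb of exon, against 0.102 over the 48 other genes in the table, where CPM is the read count relative to the TMM-adjusted depth of its library. A mean of at least 1 CPM was reached by 12 of the 17 and by 5 of the 48 genes. Together the 17 genes held 52.2% of the summed histone level. The ranges of the sets overlapped widely, since the highest members, H2BC12 and H1-2, have no annotated end beyond the hairpin.

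Total counts per library ranged from 3455043 to 20379777, and the 65 histone genes together received 338 to 2075 counts, or 0.00679% to 0.0136% of a library. Counting error is therefore large for most members. Of the 46 genes tested, 28 had a mean below 10 counts per library. PARP1 was at 737 to 887 CPM in all WT libraries and at 30.4 to 46.6 CPM in all PARP1-KO libraries. Of 7 markers of HEK293 lines, NEFL, VIM, KRT8 and KRT18 were at 189 CPM or more in all 40 libraries, NEFM was at 3.38 to 49.6 CPM, PAX2 at 0.0979 to 12.1 CPM and INA at or below 3.26 CPM. The 6 markers of leukocytes, endothelium and liver stayed at or below 2.74 CPM, with PTPRC at 0 in every WT library.

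Thinned to 3455043 counts, 8 libraries held fewer than 17000 detected genes, and all 8 were WT (no treatment replicates 1 and 3, DMSO 2 and 3, Tpc 2, OL9 2, Tpc + OL9 1 and 2). Between 15 and 24 histone genes had a count in these 8 libraries, against 25 to 37 in the other 12 WT libraries and 23 to 43 in the 20 PARP1-KO libraries. RNAs that carry no poly(A) tail, such as the signal recognition particle RNA, summed to 11.4 to 54.8 CPM in WT and 15.6 to 78.1 CPM in PARP1-KO libraries. The part of library complexity and of poly(A) selection in the results was not tested beyond the fits without these 8 libraries or with a covariate, and the fits that end a call are given beside that call. Without the 8 libraries, WT cells kept only replicates 2 and 4 of no treatment and replicates 1 and 4 of DMSO.

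H2B genes made up the largest share of the histone level and H3 genes the smallest. The mean summed level was 45.6 CPM for the 19 H2B genes (47.2% of the sum), 21.4 CPM for the 15 H2A genes in the table (22.1%), 16.4 CPM for the 5 H1 genes (17.0%), 9.15 CPM for the 15 H4 genes (9.48%) and 4.06 CPM for the 11 H3 genes in the table (4.21%). In a nucleosome H2A, H2B, H3 and H4 are present in equal number, so these sums do not follow the protein composition. A few genes held most of each class. H2BC12 alone gave 16.5% of the whole sum, H2BC12 and H1-2 gave 32.7%, and 10 of the 65 genes gave 77.0%. The gene of highest level within its class was H1-2 for H1, H2AC25 for H2A, H2BC12 for H2B, H3C10 for H3 and H4C8 for H4, in CPM.

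Per kb of exon the order was H2BC12 (32.2 CPM per kb), H1-2 (21.4), H2AC11 (7.74), H4C3 (5.86), H2BC5 (5.79), H2AC25 (4.66), H2BC8 (4.22), H2BC11 (4.00), H2AC6 (3.72), H2BC21 (2.93), H2AC8 (1.84) and H4C8 (1.79), and the median of the 65 genes was 0.249. All 12 lie in the histone clusters of chromosome 6, except H2AC25 and H2BC21 on chromosome 1. H2BC12 codes for an H2B and H1-2 for the H1 subtype that is common in cultured cells. Both were read in all 40 libraries, with H2BC12 at 8.14 to 27.4 CPM and H1-2 at 5.77 to 23.7 CPM. Of H2BC12, 77.5% of the 100-base windows occur only once in the hg38 genome, so a part of its reads may not have been placed uniquely, while all windows of H1-2 are unique. H2AC11, H2BC5, H2AC25, H2BC11 and H2AC6 were also read in every library, which makes 7 genes in all.

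As a reference, 14 histone genes listed as replication-independent, whose mRNAs typically carry a poly(A) tail, were measured, and 13 of them were tested. Their median was 20.2 CPM per kb and their sum 2318 to 3471 CPM per library. The sum of the replication-dependent genes, 66.2 to 132 CPM, lay below that range in every library.

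No count at all was found for H2BC1, H2AC7, H3C4, H4C13, H4C7 and H4C6, and 13 further genes in the table stayed below the filter. The genes just inside it were H4C1 with 10 counts and H4C11, H2BC14 and H2AC21 with 11 each over 40 libraries. Those just outside were H1-1 and H2BC10 with 7 and H2AC17 with 6. Near-identical copies bear on these low values. In 48 of the 65 genes every 100-base window is unique, in 10 genes fewer than 50% are, and in 5 genes (H2BC12L, H3C14, H3C15, H4C14 and H4C15) none is. Exons of 11 genes in the table overlap exons of another gene, among them H4C8 and H2BC18 with a gene on the opposite strand. The strand setting of the counts is not stated, so the values of overlapping genes are uncertain.

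By position, the genes fall into clusters. The large cluster of chromosome 6 at 25723397 to 26285638 (hg38) has 33 of the 69 genes and held 43.4% of the summed level. The small group at 27125897 to 27147562 on the same chromosome, with H2BC11, H2AC11, H4C9, H2BC12 and H2AC12, held 25.6%, and the group at 27807479 to 27893891 with 16 genes held 8.77%. On chromosome 1, H2AC25 and H2BC26 at 228434777 to 228463104 held 11.4%, and 11 genes at 149782689 to 149887965 held 10.0%. H4C16 on chromosome 12 held 0.839% and H2BC12L on chromosome 21 held 0.00962%.

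In 12 places an H2A and an H2B gene stand head to head with 170 to 251 bases between their starts, and the partners differed in level. The H2B partner was higher per kb in 7 pairs and the H2A partner in 5. H2BC12 was 77.3-fold above H2AC12 (32.2 against 0.417 CPM per kb), whereas H2AC6 stood at 3.72 against 0.301 for H2BC4 and H2AC25 at 4.66 against 0.485 for H2BC26. The partners H2AC8 and H2BC8 were at 1.84 and 4.22 CPM per kb. H2AC17, the partner of H2BC17, had its 6 counts in 1 library and shares 346 exon bases with H3C12, so no fold is given. H2AC12, H2BC17, H2AC17 and H2BC4 are named here for their place in a pair, after their values were seen.

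RefSeq promoters (GRCh38.p14, 250 bases before to 50 after the start) were found for 63 of the 69 genes. The letters CCAAT on either strand, the site of NF-Y in many promoters, were in 84.1% of them against 35.7% of 27305 promoters. They were in every matched H1, H2A, H2B and H3 promoter but in 3 of 13 H4 promoters. ATTTGCAT, the octamer read by the transcription factor POU2F1, was in 41.3% against 1.80% of all promoters, in 11 of 16 H2A and 14 of 18 H2B promoters, in 1 of 11 H3 promoters and in none of the H1 and H4 promoters. TATAAA, the TATA box, was in 66.7% against 12%. Matches of CCAAT and of the octamer can overlap in the letters AT, and a match describes the sequence only. The windows of head-to-head H2A and H2B partners, with 170 to 251 bases between their starts, overlap. The same match can therefore be counted for both partners in these shares.

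The summed level of the 65 genes differed little among the PARP1-KO groups and varied more in WT. In PARP1-KO it was 91.0 to 117.1 CPM with a median of 102.9 over 20 libraries, and in WT 66.2 to 132 CPM with a median of 86.6. The WT OL9 group stood above the other WT groups. Its libraries were at 105 to 132 CPM (116.1 ± 11.3, SD, n = 4), and the other 16 WT libraries were at or below 103.4 CPM. WT means were 84.4 ± 6.51 without treatment, 86.7 ± 14.8 with DMSO, 76.7 ± 7.68 with Tpc and 87.7 ± 10.7 with Tpc + OL9 (SD, n = 4 each). In PARP1-KO cells the 5 group means lay between 101.3 and 107 CPM. These sums are descriptions and were not tested.

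The higher sum with OL9 in WT cells lay with the genes that have a downstream end, H2AC6 foremost among them. These 17 genes summed to 61.6 to 81.6 CPM with OL9, against 38.2 to 43.5 CPM without treatment and 35.1 to 56.3 CPM with DMSO. The other 48 genes summed to 41.6 to 50.8 CPM with OL9, a range that overlapped those without treatment (37.2 to 47.6 CPM) and with DMSO (34.3 to 59.7 CPM). By class, H2A was at 31.9 to 43.0 CPM with OL9, above the 9.38 to 21.7 CPM without treatment and the 17.7 to 27.0 CPM with DMSO. Without H2AC6 the H2A sums with OL9 were 17.26 to 20.3 CPM. They overlapped narrowly with DMSO (10.97 to 17.34 CPM) and lay above those without treatment (5.93 to 16.2 CPM). The sums of all genes without H2AC6 were 93.4 to 106.2 CPM with OL9. They too overlapped narrowly with DMSO (66.7 to 93.7 CPM) and lay above those without treatment (72.0 to 85.6 CPM). The genes with a downstream end were then at 46.8 to 55.9 CPM with OL9, against 34.8 to 37.99 CPM without treatment and 30.6 to 46.6 CPM with DMSO. In PARP1-KO cells with OL9, H2A was at 17.0 to 20.9 CPM, which overlapped the 18.5 to 18.7 CPM of untreated PARP1-KO cells. H1 moved the other way in WT cells under Tpc, with 9.13 to 12.9 CPM against 14.4 to 20.9 CPM without treatment, although the DMSO libraries at 10.0 to 22.2 CPM overlapped both.

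Replicates of a WT group differed more from each other than those of a PARP1-KO group. For the 17 histone genes with a mean of at least 1 CPM, the median within-group coefficient of variation was 59.5% in WT and 27.6% in PARP1-KO cells. It was 47.2% and 28.8% over the 5802 genes of the same range of level. The spread was larger in WT for 16 of the 17 genes, and for 88.4% of those 5802 genes. The exception was H2BC8, an H2B gene, at 59.5% in WT and 62.1% in PARP1-KO. H3C10 (88.3% and 43.6%) and H2BC11 (76.3% and 21.3%) had wide spreads in WT.

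Each gene was tested with the quasi-likelihood test of edgeR, p-values were adjusted by the Benjamini-Hochberg method over the 28922 genes, and genes with an adjusted p below 0.01 were called DEGs. The fit gives each gene 1 spread for both genotypes. Since the spread was larger in WT, p-values within WT may be too small and those within PARP1-KO too large. The question of the genotype comparison was which genes differ in the absence of PARP1. Without treatment, 0 of the 46 histone genes passed, against 5.97% of all genes that were higher and 5.74% that were lower in PARP1-KO cells. At an unadjusted p below 0.05 there were 4 histone genes (8.70%), beside 30.5% of all genes, and DESeq2 called 1. With DMSO, 1 histone gene was higher and 0 were lower, against 6.67% and 5.75% of all genes, and 9 (19.6%) were below 0.05 unadjusted, beside 32.5% of all genes. The share of histone genes called was below the background in both comparisons. Of the 46 genes, 28 had a mean below 10 counts per library, and no background of equal count level was drawn for the calls. The lower share is therefore not a result about histone genes as such.

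The gene called with DMSO was H2AC8, an H2A gene of the large cluster. It had 0 counts in all 4 WT DMSO libraries, whose summed depth allows a level of up to 0.0784 CPM at 3 counts over the group. PARP1-KO DMSO libraries were at 1.03, 0.980, 0.489 and 1.13 CPM, with 48 counts in all, so the level was at least 11.9-fold higher (adjusted p = 0.00184, edgeR). The groups did not overlap. Without treatment the WT libraries were at 0.514, 0.900, 0 and 0.375 CPM and the PARP1-KO libraries at 1.25, 1.71, 1.27 and 2.10 CPM, with a log2 fold change of 1.79 ± 0.99 (SE) and an adjusted p of 0.214. In the fit of the 8 DMSO libraries alone the adjusted p of H2AC8 was 0.0200. The library names carry 1 of 3 prefixes, whose meaning is not stated, and within each of them H2AC8 was at 0 in WT DMSO cells and at 1.00, 0.489 and 1.13 CPM in PARP1-KO DMSO cells.

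H2BC15, an H2B gene with an annotated end 16604 genomic bases beyond its hairpin, is named here after its values were seen, as the histone gene of lowest adjusted p without treatment. WT libraries without treatment were at 2.49, 1.35, 0 and 0.999 CPM and PARP1-KO libraries at 5.18, 6.93, 5.81 and 5.82 CPM. With DMSO, WT was at 3.20, 4.01, 0 and 0.626 CPM and PARP1-KO at 7.18, 6.15, 9.40 and 6.92 CPM. The groups did not overlap in either comparison. On the log2 scale H2BC15 differed by 2.25 ± 0.67 (SE) without treatment (adjusted p = 0.0113, edgeR) and by 1.86 ± 0.65 with DMSO (adjusted p = 0.0334, edgeR), so both missed the threshold. Leaving out the low-complexity libraries, H2BC15 passed in both, and without treatment it also passed with DESeq2, with the replicate number as a block and with no filter on low counts.

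The genotypes were also compared as the average of the contrasts without treatment, with DMSO and with OL9, where doses were equal. This contrast was added after the data were seen. It called 3 histone genes higher and 1 lower in PARP1-KO cells, against 15.8% and 12% of all genes, a smaller share with the same limit of low counts. H2BC15 was higher by 1.82 ± 0.38 on the log2 scale (adjusted p = 7.0e-05), with all 12 PARP1-KO libraries (5.18 to 9.40 CPM) above all 12 WT libraries (0 to 4.01 CPM). It was the only one of the 46 genes with such a gap upwards, which 3.92% of all genes had, and 0 had it downwards, beside 3.08% of all genes. H2AC8 was higher with a median of 1.19 CPM in PARP1-KO and 0.444 CPM in WT cells (adjusted p = 0.000893). Its average includes the DMSO contrast, where every WT library was at 0. With OL9 the genotypes lay close, at 0.959 ± 0.409 CPM in WT and 1.188 ± 0.449 CPM in PARP1-KO cells (SD, n = 4). H3C8 had 0 counts in all 12 WT libraries and 15 counts in the 12 PARP1-KO libraries. No WT library of the series held a count of it, so it passed the count filter through PARP1-KO libraries alone. Its direction was thus fixed by the filter, and among the genes called higher only H2BC15 and H2AC8 bear on direction. The call of H3C8 was also lost once replicate number entered the fit as a block. H2AC6 was lower by 0.70 ± 0.20 on the log2 scale (adjusted p = 0.00435), with 3.46 to 25.7 CPM in WT and 3.57 to 6.24 CPM in PARP1-KO cells, where the high WT libraries were those with OL9.

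Leaving out the 8 low-complexity libraries raised this average contrast to 5 higher and 2 lower histone genes, beside 16% and 14.1% of the 28410 genes tested in that fit. The added ones were H1-2, H2AC15, H2AC25 and H2BC21, while H3C8 did not pass. H3C8 and H2AC15 are named after their values were seen. In WT cells without treatment or with DMSO, H2AC15 had counts only in DMSO replicate 2, which was 1 of the libraries left out. Both groups were then at 0 counts, and its log2 fold change went from 2.04 to 3.58. The call of H2AC15 thus rests in part on groups without a count. H1-2 was then higher by 0.55 ± 0.12 on the log2 scale and H2BC21, an H2B gene of chromosome 1, by 1.04 ± 0.19, while H2AC25 fell by 0.76 on the log2 scale. Over all 12 libraries a genotype, H2BC21 was at 6.91 to 10.1 CPM in PARP1-KO and 1.27 to 13.1 CPM in WT cells, and H2AC25 at 4.21 to 8.47 and 4.74 to 14.9 CPM, so these ranges overlapped.

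**Figure D1:**
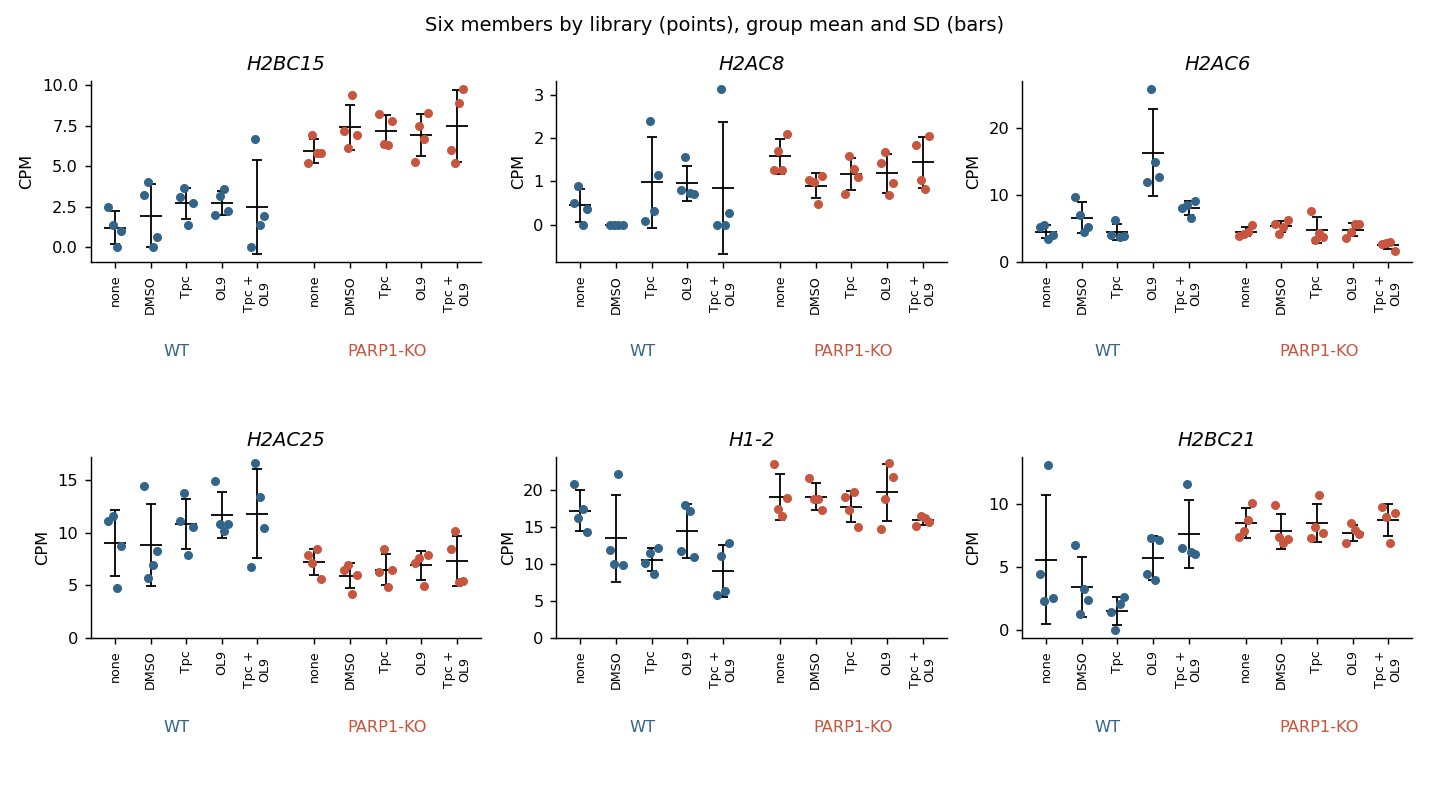
CPM of 6 histone genes in every library by treatment and genotype, with points for libraries and bars for the group mean and SD (n = 4). H2BC15 lies at 5.18 to 9.40 CPM in PARP1-KO cells without Tpc, H2AC8 is at 0 in all WT DMSO libraries, and H2AC6 reaches 11.9 to 25.7 CPM in WT cells with OL9.

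H2BC12 and H1-2, the most abundant members, showed no difference between the genotypes that passed the test in the fits of all 40 libraries. H2BC12 was at 14.4 ± 4.74 CPM in WT and 15.5 ± 4.61 CPM in PARP1-KO cells without treatment (SD, n = 4), with a log2 fold change of 0.13 ± 0.26. H1-2 was at 17.3 ± 2.75 and 19.1 ± 3.10 CPM, with a log2 fold change of 0.14 ± 0.24. With DMSO, H1-2 was at 13.5 ± 5.86 CPM in WT and 19.2 ± 1.81 CPM in PARP1-KO cells. It passed there once the low-complexity libraries were left out, as it did in the average contrast above. For the 16 histone genes with 20 or more counts per library on average, the median log2 fold change was 0.16 without treatment and 0.31 with DMSO, beside 0.01 and 0.02 over the 13989 genes of that level, and 11 and 10 of the 16 were positive. Over all 46 genes it was 0.57 and 0.79, beside 0.17 and 0.19 over all genes tested. With genes that had a group at 0 set to their bound, it was 0.13 and 0.64, beside 0.04 and 0.00. H3C8, H4C1, H2BC14 and H2AC21 had 0 counts in every WT library, so they passed the count filter through PARP1-KO libraries alone. These genes could not come out lower in PARP1-KO cells. The medians over all 46 genes therefore rest in part on a direction that the filter fixed, and the bound does not remove this.

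DMSO alone was not followed by a change that passed the test. In WT cells 0 histone genes were called, with 5 below an unadjusted p of 0.05, and in PARP1-KO cells 0 were called, with 1 below 0.05. The background was 0.0% in both directions in both genotypes, and DESeq2 called 0 histone genes in either.

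OL9 addresses the effect of inhibiting TDP1. In WT cells 1 histone gene was higher and 0 were lower against no treatment, beside 0.449% and 0.833% of all genes, and 6 (13%) had an unadjusted p below 0.05, beside 16.1% of all genes. The gene was H2AC6, an H2A gene with an annotated end 14432 genomic bases beyond its hairpin. The WT OL9 libraries were at 11.9, 25.7, 14.8 and 12.6 CPM. WT libraries were at 5.21, 5.49, 3.46 and 4.00 CPM without treatment and at 9.66, 7.07, 4.55 and 5.17 CPM with DMSO. All libraries with OL9 stood above all of those controls. The log2 fold change against no treatment was 1.83 ± 0.35 (adjusted p = 0.000538, edgeR).

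Against DMSO, the solvent of OL9, the log2 fold change of H2AC6 was 1.29 ± 0.35 with an adjusted p of 0.0262, above the threshold. Against no treatment again, the call was lost without the low-complexity libraries, which include the highest one at 25.7 CPM (log2 fold change 1.46 ± 0.36, adjusted p = 0.0160), and with only the 2 groups compared in the fit (1.84 ± 0.34, adjusted p = 0.0192). Omitting any 1 of the 8 libraries of OL9 and no treatment left the call in place, with adjusted p-values of 0.00114 to 0.00842. Within the 3 prefixes of the library names, H2AC6 was at 11.9, 25.7 and 13.7 CPM with OL9 and at 5.21, 5.49 and 3.73 CPM without treatment. An unnamed gene on the same strand shares 27 exon bases with H2AC6.

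In PARP1-KO cells H2AC6 was at 3.57, 4.46, 5.63 and 5.63 CPM with OL9 and at 3.92, 4.17, 4.48 and 5.49 CPM without treatment. These ranges overlapped. The difference between the responses of the genotypes was −1.74 ± 0.50 on the log2 scale, with an adjusted p of 0.383, so a difference between genotypes was not shown at the threshold. In the comparison of OL9 responses, 0 histone genes passed in either direction, beside 0.0138% and 0.0519% of all genes, and 5 had an unadjusted p below 0.05. OL9 in PARP1-KO cells called 0 histone genes, with 0 below 0.05 unadjusted, beside 0.0% higher and 0.00346% lower of all genes. DESeq2 also called 0 in both.

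Of the 16 histone genes with at least 20 counts per library, 13 had a positive log2 fold change with OL9 in WT cells, with a median of 0.33 beside 0.01 over genes of that level. H2BC26, the H2B partner of H2AC25, is named after its values were seen. It was at 2.96, 9.63, 4.67 and 5.02 CPM with OL9, at 0, 0.990, 0 and 2.00 CPM without treatment and at 0.995, 4.85, 6.35 and 1.72 CPM with DMSO, and its adjusted p against no treatment was 0.0268. H2AC25 was at 11.7 ± 2.18 CPM with OL9 and 9.04 ± 3.13 CPM without, which did not pass.

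Tpc was used to trap topoisomerase 1. In WT cells it called 0 histone genes, beside 0.553% of all genes that were higher and 0.304% that were lower, with 6 (13%) below an unadjusted p of 0.05 beside 15.6% of all genes. DESeq2 called 1, H2BC21. That gene was at 1.39, 0, 2.01 and 2.58 CPM with Tpc and at 4.48, 2.25, 13.1 and 2.50 CPM without treatment, with a log2 fold change of −1.96 ± 0.51 and an adjusted p of 0.0236 (edgeR). The groups overlapped. H1-2 was at 10.1, 11.5, 8.66 and 12.1 CPM with Tpc, below all 4 libraries without treatment (20.9, 16.3, 17.5 and 14.4 CPM), but within the range with DMSO, and did not pass (log2 fold change −0.71 ± 0.24, adjusted p = 0.122).

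In PARP1-KO cells Tpc called 0 histone genes, beside 0.0% and 0.0138% of all genes, and 1 had an unadjusted p below 0.05. H2BC21 was at 7.32, 8.21, 10.7 and 7.70 CPM with Tpc and at 7.37, 7.88, 8.77 and 10.1 CPM without treatment in these cells. The Tpc responses differed between the genotypes for 0 histone genes, beside 0.0173% and 0.083% of all genes, and 2 were below 0.05 unadjusted. The largest deviation there was that of H2BC21 by p (1.95 ± 0.68 on the log2 scale, adjusted p = 0.558), and it compares doses as well as genotypes. DESeq2 called 0 in both.

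With Tpc + OL9 in WT cells, 0 histone genes were higher and 1 was lower against no treatment, beside 2.07% and 2.0% of all genes, and 4 (8.70%) had an unadjusted p below 0.05 beside 21.7% of all genes. The gene was H1-2, at 5.77, 11.1, 6.35 and 12.9 CPM against 20.9, 16.3, 17.5 and 14.4 CPM. It fell by 0.97 on the log2 scale (SE 0.25, adjusted p = 0.00674, edgeR), and the groups did not overlap. Against DMSO, where WT libraries were at 11.9, 10.0, 22.2 and 9.86 CPM, the log2 fold change was −0.62 and the adjusted p 0.122. Without the low-complexity libraries it was −0.77 with an adjusted p of 0.145, and with an offset for gene length and GC content −0.66 with an adjusted p of 0.114. With the level of RNAs lacking a poly(A) tail as covariate it was −0.87 (adjusted p = 0.0196), and with only the 2 groups compared in the fit −0.95 (adjusted p = 0.153), both above the threshold. The call was also lost on omitting replicate 1, 2 or 3 without treatment or replicate 1 or 3 of the combination, with adjusted p-values of up to 0.0585. Within the 3 prefixes H1-2 was at 5.77, 11.1 and 9.63 CPM with the combination and at 20.9, 16.3 and 15.9 CPM without treatment.

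H1-2 in PARP1-KO cells was at 15.2, 16.6, 16.2 and 15.7 CPM with the combination and at 23.5, 17.4, 16.6 and 19.0 CPM without treatment. The combination called 0 histone genes in these cells, with 1 below 0.05 unadjusted, and 0.0% of all genes in either direction. Its effect differed between the genotypes for 0 histone genes, beside 0.0692% and 0.201% of all genes, with 4 below 0.05 unadjusted. H2AC6 had the lowest adjusted p there (−1.65 ± 0.50 on the log2 scale, adjusted p = 0.147). It was at 8.09, 8.53, 6.60 and 9.06 CPM in WT and at 2.64, 2.82, 2.98 and 1.73 CPM in PARP1-KO cells with the combination. The last 4 values were below all 4 PARP1-KO libraries without treatment, with a log2 fold change of −0.83 ± 0.36 and an adjusted p of 1. DESeq2 called 0 in both of these comparisons.

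Against Tpc alone, the combination asks what TDP1 inhibition adds. In WT cells 1 histone gene was higher and 0 were lower, beside 0.118% and 0.0622% of all genes, and 6 (13%) were below 0.05 unadjusted beside 10.8% of all genes. The gene was H2BC21, at 6.49, 11.7, 6.23 and 6.04 CPM with the combination and 1.39, 0, 2.01 and 2.58 CPM with Tpc. The groups did not overlap, and the log2 fold change was 2.41 ± 0.51 (adjusted p = 0.00975, edgeR). The call was lost on omitting any 1 of the 8 libraries except Tpc replicate 4, with adjusted p-values of up to 0.0817, and without the low-complexity libraries (log2 fold change 1.65 ± 0.39, adjusted p = 0.0292). It was also lost with only the 2 groups compared in the fit (adjusted p = 0.224), with genes detected at equal depth as covariate (adjusted p = 0.0213), with filterByExpr (adjusted p = 0.0146) and with RNAs lacking a poly(A) tail as covariate (adjusted p = 0.0110). Within the 3 prefixes it was at 6.49, 11.7 and 6.13 CPM against 1.39, 0 and 2.30 CPM. In PARP1-KO cells 0 histone genes were called by edgeR and by DESeq2, with 1 below 0.05 unadjusted, beside 0.0% of all genes in either direction, and H2BC21 was at 9.77, 8.99, 6.88 and 9.29 CPM with the combination. The comparisons of a genotype share libraries, those without treatment above all, and are not independent of each other.

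Genes that serve the histone genes were followed in the same fit. The level of SLBP was 155 ± 26.5 CPM in WT and 212 ± 4.46 CPM in PARP1-KO cells without treatment (SD, n = 4). It was higher in PARP1-KO cells by 0.45 ± 0.11 on the log2 scale without treatment (adjusted p = 0.00122) and by 0.53 ± 0.11 with DMSO (adjusted p = 0.00015), and did not pass in any comparison of treatments. NPAT, at 36.5 ± 10.8 and 47.9 ± 7.30 CPM, did not pass anywhere (adjusted p = 0.196 without treatment and 0.328 with DMSO). Of the 25 factors of histone gene transcription, 3′ end processing and decay, 8 were higher and 1 lower in PARP1-KO cells without treatment, and 6 were higher and 2 lower with DMSO, beside the genotype backgrounds above. CASP8AP2, a partner of NPAT at the histone locus bodies, was higher by 1.43 and 1.57 on the log2 scale, ZNF473, a zinc finger protein of the U7 snRNP, by 1.32 and 1.40, and TUT7, which adds uridines to histone mRNA, by 1.01 and 1.11. ERI1, the exonuclease that trims the hairpin end, was higher by 0.99 without treatment and LSM11, a U7 snRNP protein, by 1.03 with DMSO.

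In WT cells with OL9, 0 of these 25 factors were higher and 4 lower, beside 0.449% and 0.833% of all genes. The lower ones were SNRPE (−0.97 on the log2 scale), SNRPG (−0.81), SNRPF (−0.80) and SNRPD3 (−0.72), Sm proteins that sit in the U7 snRNP and also in the snRNPs of pre-mRNA splicing. With Tpc + OL9, CASP8AP2 (1.00) and ZNF473 (0.98) were higher and SNRPD3, SNRPE (−0.69) and SNRPG (−0.70) lower, and with Tpc, ZNF473 alone was higher (0.63). Of all genes, 2.07% were higher and 2.0% lower with Tpc + OL9, and 0.553% and 0.304% with Tpc. SLBP is also a member of the list of S phase genes.

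Of the 13 tested genes of the replication-independent list, 0 were higher and 6 lower in PARP1-KO cells without treatment, beside 5.97% and 5.74% of all genes, and 1 was higher and 6 lower with DMSO, beside 6.67% and 5.75%. CENPA, the histone of the centromere, fell by 1.59 and 2.08 on the log2 scale, H2AX, the variant phosphorylated at DNA breaks, by 1.15 and 1.17, and H2AZ1 by 0.86 and 0.90. MACROH2A2 fell by 0.90 without treatment, and H2AJ rose by 1.32 with DMSO. In WT cells CENPA fell by 1.37 with Tpc, and with Tpc + OL9 there were 4 lower genes, CENPA (−1.50), H3-3A (−0.78), H2AZ1 (−0.46) and H2AZ2 (−0.45). Of all genes, 0.304% were lower with Tpc and 2.0% with Tpc + OL9.

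Of 17 histone chaperones, 3 were higher and 1 lower in PARP1-KO cells without treatment and 2 were higher and 1 lower with DMSO, beside the same shares of all genes. CHAF1A, a subunit of the assembly factor CAF-1, was higher by 0.86 and 0.99 on the log2 scale, MCM2, a helicase subunit that also binds histones, by 0.57 and 0.67 and NPM1 by 0.35 without treatment, and SSRP1 of the FACT complex fell by 0.63 and 0.58. NASP, which stores soluble histones, fell by 0.49 in WT cells with OL9, the only chaperone called in a treatment comparison. Of 31 S phase genes, 5 were higher and 2 lower in PARP1-KO cells without treatment, beside 5.97% and 5.74% of all genes, and 8 and 3 with DMSO, beside 6.67% and 5.75%. Among them CDT1 was higher by 0.64 and 1.05 and E2F2 by 0.77 and 0.92, while CCNA2, cyclin A2, fell by 0.83 and 0.87 and GINS2 by 0.72 and 0.71. In WT cells CCNA2 fell by 0.83 with Tpc and by 0.85 with Tpc + OL9, CDC6 rose by 0.57 and 0.40, MCM4 rose by 0.49 with Tpc, E2F2 rose by 0.57 with Tpc + OL9, and PCNA fell by 0.57 with OL9. Of all genes, 0.553% were higher and 0.304% lower with Tpc, 2.07% and 2.0% with Tpc + OL9, and 0.449% and 0.833% with OL9.

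None of the 19 tested RNAs without a poly(A) tail was called in any of the 15 comparisons. None of the genes of these lists was called in a treatment comparison of PARP1-KO cells or in a difference of responses. The line markers moved with genotype as well, as VIM was higher and KRT8 and KRT18 were lower in PARP1-KO cells. PAX2 and NEFM were also lower there with DMSO, and KRT8 and KRT18 were lower in WT cells with Tpc + OL9. The part of such differences between the WT population and the single clone in the histone results was not tested.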

How the data were processed

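RNA-seq gene counts of 40 libraries (10 groups of 4) were used. Poly(A)-selected directional libraries were read as 100 bp pairs. The authors used STAR 2.7.8 with hg38 and Ensembl 93 and deposited raw counts per gene, neither normalized nor pooled, with the strand setting not given in the sources used here. The submitters' notes also name FastQC 0.11.9 and Picard 2.26.6. All columns were matched by name, and 0 columns of other samples were present. Depth was 3455043 to 20379777 counts per library.

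Genes with at least 10 counts over all libraries were tested with edgeR 4.0.16 (TMM, glmQLFit with legacy option, 1 group per condition, all 40 libraries) in R 4.3.3. The SE is the log2 fold change over the root of F. Positions, exon lengths, hairpins and copies came from GENCODE 44 and hg38. A floor of 3 counts over a group covers counting error only. No pair of libraries was identical.

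The histone genes, the lists and the tests were chosen with earlier results of these data known. Named were the 12 histone genes highest per kb, those called, the highest of each class, SLBP, NPAT, PARP1 and at most 4 called genes per list and comparison. Lists covered histone mRNA factors, replication-independent histones, chaperones, S phase genes, RNAs without poly(A) tail and markers. Alternatives were RLE, other filters, DESeq2 1.42.0, covariates, offsets, DMSO as comparator, a replicate block and each library left out. Complexity as a covariate, the fit without 8 libraries, the average genotype contrast and sums without H2AC6 were added after seeing the data. The procedure was tested on simulated data, in which the changed genes had a mean of at least 20 counts and all libraries had 1 spread. It does not cover the lower counts or the unequal spread of the genotypes in these data. The single values of 1 replication-independent histone gene are not reported here.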

Additional observations from a re-analysis of the deposited data

Results flagged for a closer look

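Among 150 groups of 4 libraries checked, 15 had 1 library far from the other 3. The rule flags about 1 in 20 groups of independent, normally distributed values. Low counts do not follow that distribution and the groups share libraries, so no excess over chance is read from the number. No difference between the responses of the genotypes passed the test.

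In WT cells the library was far above the others for H1-2 with DMSO (replicate 3 at 22.2 CPM, the others at 9.86 to 11.9), for H2AC11 with Tpc (replicate 1 at 5.16, others 1.08 to 1.42), for H2BC5 with Tpc (replicate 2 at 6.93, others 3.23 to 3.61) and for H2AC6 with Tpc (replicate 2 at 6.31, others 3.71 to 4.08). With OL9 it was H2AC25 (replicate 1 at 14.9, others 10.2 to 10.9) and H2AC8 (replicate 2 at 1.57, others 0.717 to 0.808), while H2BC8 was at 0 in replicate 2 and at 3.30 to 3.79 in the others. With Tpc + OL9 it was H2BC21 (replicate 2 at 11.7, others 6.04 to 6.49) and H2AC8 (replicate 2 at 3.13, others 0 to 0.275). H3C10, the H3 gene of highest level, was far above the others in replicate 3 without treatment (4.25, others 1.25 to 1.32), with DMSO (6.11, others 0.844 to 1.49) and with Tpc + OL9 (2.86, others 0 to 0.275). Of these 12 values, 9 came from libraries with fewer than 17000 genes at equal depth.

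In PARP1-KO cells H2BC21 with DMSO was at 9.95 CPM in replicate 1 (others 6.95 to 7.35), H4C8 with OL9 at 5.63 in replicate 3 (others 4.01 to 4.20), and the summed level without treatment was lowest in replicate 1 at 95.5 CPM (others 102.8 to 104.2).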

How the results depend on the processing

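Counts of called histone genes were recomputed 192 times with other settings and stayed within 1.5 times of the reported count in 163. Most comparisons had a reported count of 0, so much of this is 0 against 0 and says little of the calls. With other settings the call was kept for H2AC8 in 11 of 12, H2AC6 in 10 of 13, H1-2 in 8 of 13 and H2BC21 in 7 of 12. With 1 library left out it was kept in 8, 8, 3 and 1 of 8 fits. None of 1407 recomputed fold changes of called genes, those of the other lists included, reversed, and 183 no longer passed. For PARP1-KO against WT without treatment the count was 1 in place of 0 at an adjusted p below 0.05, with no filter, with the replicate block and with DESeq2 (H2BC15 each time), and 2 without the 8 low-complexity libraries. With DMSO it was 2 in place of 1 at an adjusted p below 0.05 and with no filter, 0 with only the groups compared in the fit and 4 without the 8 libraries, and the average over 3 treatments gave 4, or 3 with the block and 7 without the 8 libraries. For Tpc in WT it was 1 in place of 0 at an adjusted p below 0.05, with no filter and with DESeq2. For OL9 in WT it was 2 in place of 1 at an adjusted p below 0.05 and with no filter, and 0 with DMSO as comparator, with only the groups compared and without the 8 libraries. For Tpc + OL9 in WT it was 0 in place of 1 with RNAs lacking a poly(A) tail as covariate, with only the groups compared, with length and GC offsets and without the 8 libraries, and with DMSO as comparator the 1 gene was H2AC8, higher. For Tpc + OL9 against Tpc in WT it was 0 in place of 1 with filterByExpr, the same covariate, only the groups compared, genes at equal depth as covariate and without the 8 libraries. A fit of only the groups compared has fewer samples to estimate the spread. In WT comparisons it also does not share a spread with the less variable PARP1-KO libraries. In that fit the SE was 0.35 against 0.25 in the main fit for H1-2, 0.70 against 0.51 for H2BC21 and 0.34 against 0.35 for H2AC6. The part of each of these in the lost calls was not tested, nor were other causes.

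With 1 library left out, the count was 0 to 1 for PARP1-KO against WT without treatment (H2BC15 without WT replicate 1, H2BC26 without WT replicate 4), 1 to 2 with DMSO (H1-2 added without WT replicate 3), 0 to 1 for Tpc in WT (H2BC21 without untreated replicate 2 or 4), 1 to 2 for OL9 in WT (H2BC26 added without untreated replicate 4), 0 to 1 for Tpc + OL9 in WT (H3C10 in place of H1-2 without replicate 3 of the combination), 0 to 1 for Tpc + OL9 against Tpc in WT, and 0 in the other 9 comparisons. Replicate numbers did not pair the samples (mean correlation of deviations 0.0361 for equal and −0.00771 for unequal numbers), and the block changed no other count. Without H2AC6 the mean summed level was 99.8 CPM in WT cells with OL9 and 96.8 CPM in untreated PARP1-KO cells, and moved by less than 1 SD in the other 8 groups. Of the 46 genes tested, 28 had a mean below 10 counts per library.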
